A study of Daucus carota with 6 samples.

Results

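Genes that make, use or break down tyrosine were followed, 8 of the 35073 genes in the carrot (Daucus carota) expression table. They were taken by their locus IDs, with earlier results of these data known. They comprise 1 gene of tyrosine supply, 2 genes of tyrosine and DOPA use, 2 genes of tyrosine breakdown and 3 prenyltransferases. The prenyltransferases use homogentisate, a breakdown product of tyrosine. Expression was measured by RNA-seq in fleshy roots, the swollen storage taproot, in 2 groups of 3 samples. The BC roots came from stably transformed carrots that carry the transgenes CYP76AD1S, cDOPA5GTS and DODA1S and accumulate betanin, a red betalain pigment, and the WT roots came from non-transgenic carrots. The labels give no cultivar, plant age, promoter or number of transgenic lines. Nor do they say that each sample was a separate plant, so a p-value speaks only of the spread between the 6 samples, which may be technical. The comparison asked how expression of tyrosine genes differed between roots that make a tyrosine-derived pigment and roots that do not.

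Plants make tyrosine in plastids from prephenate, a precursor shared with phenylalanine. Prephenate is transaminated to arogenate, and arogenate dehydrogenase turns arogenate into tyrosine. Betalain synthesis starts from tyrosine: a cytochrome P450 of the CYP76AD type makes L-DOPA and cyclo-DOPA, a DOPA dioxygenase opens the ring of DOPA to give betalamic acid, and a glucosyltransferase adds glucose to cyclo-DOPA. Tyrosine that is not used in this way can be decarboxylated to tyramine, built into protein, or transaminated to 4-hydroxyphenylpyruvate and oxidised to homogentisate. Homogentisate is either broken down to fumarate and acetoacetate or joined to a prenyl chain on the way to tocopherol (vitamin E) or plastoquinone, an electron carrier of photosynthesis. Carrot makes no betalain of its own.

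Levels are given as FPKM, a fragment number scaled to transcript length and library size, so that genes can be compared with each other. Changes are log2(FPKM + 1) in BC minus WT, tested in limma over all 21033 genes that reached 1 FPKM in at least 3 samples, and a gene was called at a Benjamini-Hochberg adjusted p below 0.05. The read depth behind the values is unknown. A green tissue list was made from words for chlorophyll-binding, photosystem and ribulose bisphosphate carboxylase proteins, and also caught rows described otherwise. Of its 52 tested rows, 41 rose and 3 fell in BC roots (84.6% called, against 46.4% of all tested genes). Summed over the 62 listed rows, 8 of them at 0 in all 6 samples, levels were 5923 to 8770 FPKM in WT and 21112 to 24629 FPKM in BC. A storage root list was drawn up from words for phytoene synthase, the major allergen Dau c 1 and the DC2.15 proline-rich protein. Of its 15 tested rows, 6 rose, 1 fell and 8 were not called. Its abundant rows were present in every sample, among them the carrot pathogenesis-related protein row DCAR_027034.v1.0 with 2691 to 2798 FPKM in WT roots and 4222 to 9076 FPKM in BC roots. Summed over the 40 listed storage root genes, 16 of them at 0 throughout, levels were 7684 to 8384 FPKM in WT and 12901 to 23547 FPKM in BC. That row and novel322, described as an allergen of the same family, held 7020 of the mean sum of 8015 FPKM in WT. In BC they held 14194 of 18790 FPKM. The part of these shifts in the results on tyrosine genes was not tested. In whole roots, fewer cells of a type and less RNA per cell cannot be told apart.

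All 8 tyrosine genes passed the filter. None was called higher and 2 were called lower in BC roots by limma, against 22.8% of all tested genes called higher and 23.5% called lower. The 2 that fell, arogenate dehydrogenase 2 and the homogentisate phytyltransferase DCAR_017980.v1.0, make up 25% of the 8, against 46.4% of all tested genes called in either direction. At an unadjusted p below 0.05, 1 gene was higher and the same 2 were lower. Among all 21033 tested genes, 5579 were higher and 5827 were lower at that threshold. The groups did not overlap for 2 of the 8 genes, against 57.1% of all tested genes. The median change of the 8 was -0.13, against -0.016 for all tested genes. The share called lower was close to the background share.

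**Figure D1:**
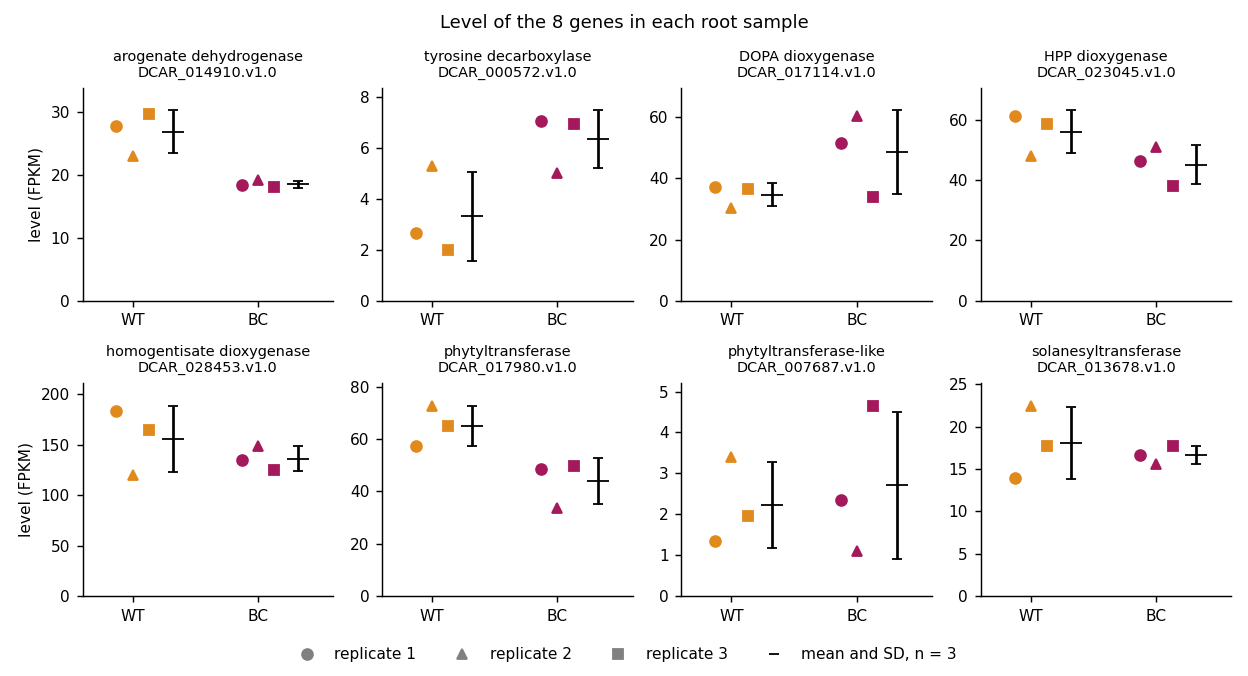
Expression of each of the 8 tyrosine genes in FPKM in the 3 WT and 3 BC samples. Each gene has its own panel with a linear axis. Points are samples and bars are group means with SD (n = 3). Groups separate for arogenate dehydrogenase 2 and for the homogentisate phytyltransferase DCAR_017980.v1.0, both lower in BC, and overlap for the other 6 genes.

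Arogenate dehydrogenase 2 (DCAR_014910.v1.0), which carries out the last step of tyrosine synthesis, was lower in BC roots. Its level was 27.8, 23.1 and 29.7 FPKM in WT replicates 1 to 3 and 18.4, 19.2 and 18.0 FPKM in BC replicates 1 to 3. Every BC sample lay below every WT sample, and the BC samples were close together (SD 0.589 FPKM, against 3.41 FPKM in WT). The BC mean of 18.5 FPKM was 0.689 times the WT mean of 26.9 FPKM, a change of -0.51 (SE 0.12, limma adjusted p = 0.0123). Without WT replicate 3, the highest sample, the change was -0.43 and the call was lost (adjusted p = 0.0580).

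None of the other supply genes was called lower by limma. Of 4 other tested rows on a list of supply genes drawn up from descriptions, 1 rose and 0 fell (2 and 0 at an unadjusted p below 0.05), with a median change of 0.37. Prephenate aminotransferase (DCAR_032171.v1.0), which makes arogenate, was 15.2 ± 1.34 FPKM in WT and 22.0 ± 4.25 FPKM in BC (SD, n = 3), a rise of 0.49 (adjusted p = 0.0410). That call stood in 7 of 16 alternatives. It was lost when any 1 sample other than BC replicate 3 was left out, with adjusted p of 0.0526 to 0.120. Rescaling to equal totals (0.0700), quantile normalization (0.0596), no filter (0.0554) and a block for replicate number (0.0530) also took it above the threshold. The most abundant of these 4 rows was chorismate mutase 2 (DCAR_022859.v1.0), which makes prephenate, with means of 19.8 ± 2.62 FPKM in WT roots and 29.8 ± 8.16 FPKM in BC roots (0.54, adjusted p = 0.0635), and it was called without BC replicate 3 (adjusted p = 0.0326).

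Tyrosine decarboxylase 1 (DCAR_000572.v1.0) was low in every sample. Its deposited annotation also names tryptophan as a substrate, an amino acid that related plant decarboxylases turn into tryptamine. It was listed at 2.64, 5.28 and 2.0 FPKM in the WT replicates and at 7.04, 5.02 and 6.91 FPKM in the BC replicates. BC replicates 1 and 3 exceeded every WT sample, and BC replicate 2 lay below WT replicate 2, so the groups overlapped. The means of 3.31 ± 1.74 and 6.32 ± 1.13 FPKM differed by 0.83 (95% interval 0.13 to 1.53, unadjusted p = 0.0269), which did not pass adjustment over all genes (limma adjusted p = 0.0563). It was called higher without WT replicate 2 (1.14, adjusted p = 0.00785) and with median-ratio size factors (0.84, adjusted p = 0.0414). The 4 other rows described as tyrosine decarboxylases were listed at 0 in all 6 samples, and 3 of them follow one another in RefSeq gene order.

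The row described as 4,5-DOPA dioxygenase extradiol (DCAR_017114.v1.0) is a carrot gene with the LigB domain that plant DOPA dioxygenases share, and no other row carries that description. The WT replicates held 37.1, 30.3 and 36.6 FPKM of it and the BC replicates 51.5, 60.6 and 33.8 FPKM. BC replicates 1 and 2 exceeded all WT samples, whereas BC replicate 3 fell within the WT range. The means were 34.7 ± 3.77 and 48.6 ± 13.6 FPKM, a difference of 0.44 (95% interval -0.071 to 0.96, limma adjusted p = 0.136). Without BC replicate 3 the difference was 0.68 and was called (adjusted p = 0.0101). The introduced genes were not analysed here.

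The genes of tyrosine and DOPA use that rose were polyphenol oxidases, copper enzymes that oxidise o-diphenols such as DOPA. Of 7 other tested rows on that list 4 rose and 0 fell by limma (5 and 0 at an unadjusted p below 0.05), with a median change of 1.81, and all 4 were polyphenol oxidases. Another tested polyphenol oxidase row, DCAR_008053.v1.0, was not called (0.53, adjusted p = 0.0781). The row with the largest rise, DCAR_019635.v1.0, was listed at 0 in WT replicates 1 and 3 and at 0.11 FPKM in WT replicate 2, whereas the BC replicates held 55.4, 47.8 and 35.2 FPKM (5.49, SE 0.19, adjusted p = 3.98e-06). DCAR_021051.v1.0 lay between 0.09 and 0.22 FPKM in WT roots and held 17.4, 50.4 and 7.14 FPKM in the BC replicates (4.10, adjusted p = 0.00216), and its change was 3.41 without BC replicate 2 and 4.74 without BC replicate 3. Another row, DCAR_019633.v1.0 (1.81, adjusted p = 0.0252), lost its call without WT replicate 1 (0.0698), BC replicate 1 (0.0707), BC replicate 2 (0.0525) or BC replicate 3 (0.0703). The last, DCAR_019634.v1.0 (2.32, adjusted p = 0.0250), lost it without WT replicate 1 (0.0679), WT replicate 2 (0.0635), WT replicate 3 (0.0650) or BC replicate 1 (0.0815), and with a pseudocount of 5 (1.03, adjusted p = 0.0551). Its BC replicates were spread from 5.49 and 13.2 FPKM down to 1.05 FPKM, and the change was 1.67 without BC replicate 2 and 3.06 without BC replicate 3. The most abundant gene of the list, a primary amine oxidase-like gene (DCAR_026516.v1.0), of a family that oxidises amines such as tyramine, averaged 61.7 ± 5.27 FPKM in WT roots and 55.2 ± 4.54 FPKM in BC roots (-0.16, adjusted p = 0.250).

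**Figure D2:**
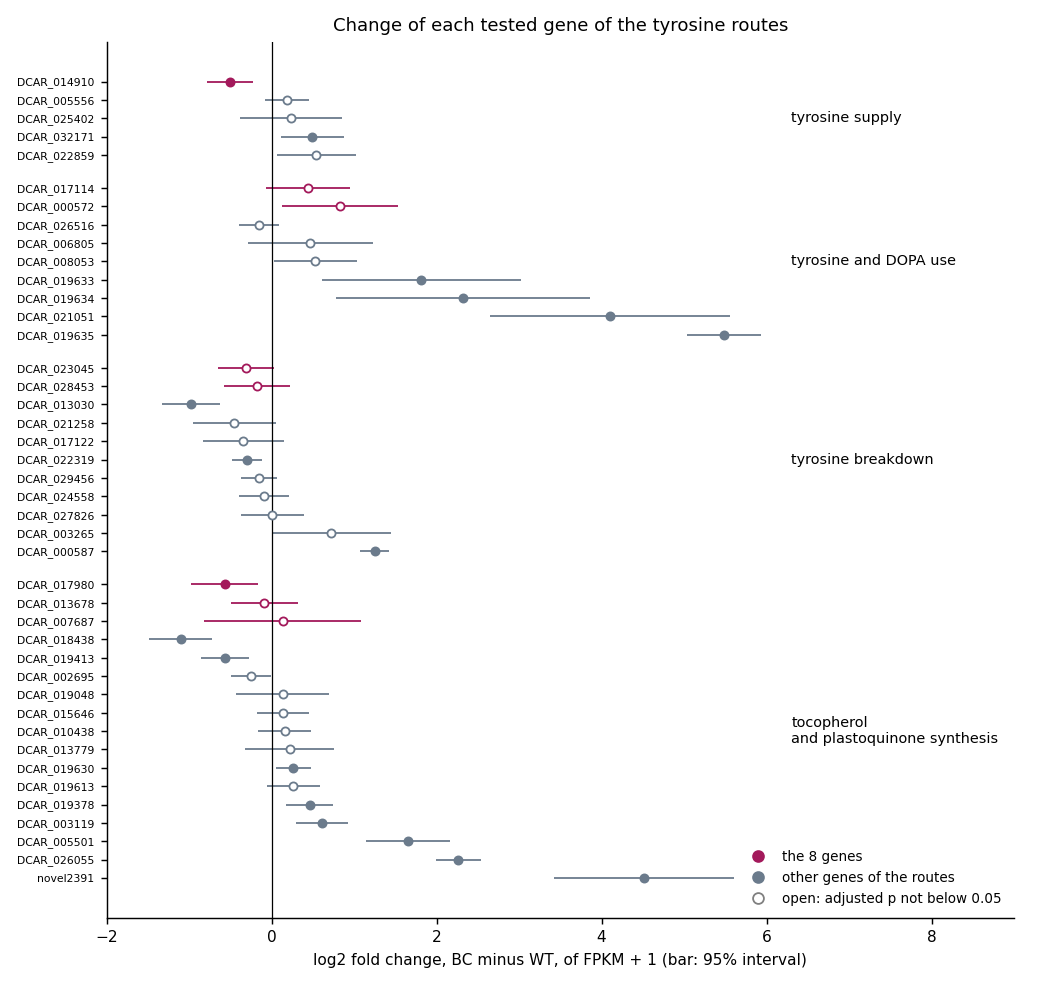
Change in BC against WT, log2(FPKM + 1), with 95% intervals for the 8 tyrosine genes and the other tested genes of the 4 routes; filled points were called by limma. The 4 called polyphenol oxidase rows, the methyltransferase row novel2391 and the geranylgeranyl diphosphate reductase row DCAR_026055.v1.0 lie farthest to the higher side, and the 8 tyrosine genes lie between -0.57 and 0.83.

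Breakdown starts with a transaminase that yields 4-hydroxyphenylpyruvate, and 4-hydroxyphenylpyruvate dioxygenase (DCAR_023045.v1.0) turns that into homogentisate. The dioxygenase level was 61.5, 48.2 and 58.8 FPKM in the WT replicates and 46.3, 51.2 and 38.2 FPKM in the BC replicates. WT replicates 1 and 3 exceeded every BC sample, and WT replicate 2 lay within the BC range. The means of 56.1 ± 7.06 and 45.2 ± 6.56 FPKM differed by -0.31 (95% interval -0.65 to 0.034, adjusted p = 0.122). Rescaling the samples to equal totals moved the change to -0.41 and past the threshold (adjusted p = 0.0345).

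Homogentisate 1,2-dioxygenase (DCAR_028453.v1.0), which opens the ring of homogentisate, was the most abundant of the 8 genes. The WT replicates held 183, 120 and 165 FPKM and the BC replicates 135, 149 and 125 FPKM, which put its mean at the 93.7th percentile of tested genes in WT and the 92.6th in BC. The BC samples lay inside the range of the WT samples. The means of 156 ± 32.6 and 136 ± 12.3 FPKM differed by -0.17 (95% interval -0.57 to 0.23, adjusted p = 0.434), and without WT replicate 2, the lowest sample, by -0.35, which was called (adjusted p = 0.0469).

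Among 9 other tested rows of tyrosine breakdown, 1 rose and 2 fell, with a median change of -0.15. Rows described as a probable aminotransferase TAT2 went both ways. DCAR_000587.v1.0 rose from 31.1 ± 0.421 to 75.4 ± 2.86 FPKM (1.25, SE 0.075, adjusted p = 4.01e-05), and DCAR_013030.v1.0 fell from 10.4 ± 0.528 to 4.83 ± 0.853 FPKM (-0.97, SE 0.15, adjusted p = 0.00231). Further rows with the TAT2 description had lower means in BC roots and were not called. They were DCAR_021258.v1.0 at 47.8 ± 9.29 and 34.9 ± 8.65 FPKM (-0.45, limma adjusted p = 0.123) and DCAR_017122.v1.0 (-0.34, limma adjusted p = 0.212). The most abundant aminotransferase row, DCAR_024558.v1.0, was at 94.0 ± 12.1 and 87.8 ± 9.38 FPKM (-0.094, adjusted p = 0.580). Downstream of homogentisate, the glutathione S-transferase zeta row DCAR_022319.v1.0, a class that includes maleylacetoacetate isomerase, fell from 66.2 ± 2.21 to 53.6 ± 1.58 FPKM (-0.30, adjusted p = 0.0168). That call was lost without WT replicate 3 (0.0848), without BC replicate 1 (0.0642) or with a block for replicate number (0.0554). Other rows of this class, DCAR_029456.v1.0 (-0.15, adjusted p = 0.225) and DCAR_003265.v1.0 (0.72, adjusted p = 0.0907), were not called. Fumarylacetoacetase (DCAR_027826.v1.0), the last enzyme of the route, was 28.9 ± 5.25 and 28.9 ± 3.75 FPKM (0.0082, adjusted p = 0.972).

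The 3 prenyltransferases use the same substrate as homogentisate dioxygenase. The homogentisate phytyltransferase DCAR_017980.v1.0, which commits homogentisate to tocopherol, was lower in BC roots. Its level was 57.3, 72.6 and 65.0 FPKM in the WT replicates and 48.5, 33.7 and 49.6 FPKM in the BC replicates. All BC samples lay below all WT samples. The means of 65.0 ± 7.64 and 43.9 ± 8.90 FPKM differed by -0.57 (SE 0.17, limma adjusted p = 0.0331). It stood in 11 of 16 alternatives. Leaving out WT replicate 2 (0.0879), WT replicate 3 (0.0945), BC replicate 1 (0.0541) or BC replicate 2 (-0.39, 0.0558) took the adjusted p above the threshold.

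The second phytyltransferase row, DCAR_007687.v1.0, described as homogentisate phytyltransferase 1-like, was the least abundant of the 8. The WT replicates held 1.34, 3.39 and 1.95 FPKM and the BC replicates 2.36, 1.11 and 4.65 FPKM. The highest and the lowest of the 6 values were both in BC roots, and the groups overlapped (0.13, 95% interval -0.82 to 1.09, adjusted p = 0.808). The difference was -0.23 without BC replicate 3 and -0.073 without WT replicate 1. Of 10 further rows described as homogentisate phytyltransferases, 7 were listed at 0 in all 6 samples and the other 3 reached at most 0.46 FPKM.

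Homogentisate solanesyltransferase (DCAR_013678.v1.0), which starts plastoquinone synthesis, held 14.0, 22.5 and 17.8 FPKM in the WT replicates and 16.7, 15.7 and 17.7 FPKM in the BC replicates. All BC samples lay inside the WT range. The means were 18.1 ± 4.24 and 16.7 ± 1.04 FPKM, a difference of -0.087 (95% interval -0.50 to 0.32, adjusted p = 0.709), and 0.074 without WT replicate 2, the highest sample.

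Other genes of tocopherol and plastoquinone synthesis, among them those that make the prenyl chains, moved in both directions. Of 14 other tested rows 6 rose and 2 fell (57.1% called, against 46.4% of all tested genes), with a median change of 0.24. Leaving out 2 rows that match the same RefSeq gene, novel2391 and DCAR_018438.v1.0, 5 rose and 1 fell. The rows that rose included DCAR_005501.v1.0 (1.65) and DCAR_019378.v1.0 (0.46, called in 11 of 16 alternatives), described as mitochondrial solanesyl-diphosphate synthases. Whether these act in plastoquinone synthesis was not tested. The chloroplastic solanesyl-diphosphate synthase row DCAR_019630.v1.0 (0.26, limma adjusted p = 0.0494) kept its call in 4 of 16 alternatives. Geranylgeranyl diphosphate reductase, which makes the phytyl chain for tocopherol and for chlorophyll, was represented by DCAR_026055.v1.0, which rose from 40.2 ± 6.02 to 195.5 ± 3.27 FPKM (2.26, adjusted p = 2.04e-05). A second row for this enzyme, DCAR_019413.v1.0, fell from 67.3 ± 9.42 to 45.0 ± 2.90 FPKM (-0.56, adjusted p = 0.0101). Tocopherol cyclase (DCAR_003119.v1.0), which closes the chromanol ring, rose from 27.9 ± 3.98 to 43.1 ± 4.54 FPKM (0.61, adjusted p = 0.00962).

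Among 3 tested rows described as the methyltransferase that acts on the prenylated quinol, 2 moved in opposite directions. The row novel2391 rose from 1.51 ± 1.31 to 49.4 ± 4.18 FPKM (4.51, adjusted p = 0.000435), and DCAR_018438.v1.0 fell from 66.1 ± 7.41 to 30.5 ± 6.32 FPKM (-1.10, adjusted p = 0.00188). A further row with its own RefSeq gene, DCAR_002695.v1.0, was not called, at 54.8 ± 4.69 and 45.9 ± 3.18 FPKM (-0.25, adjusted p = 0.0807). The rows novel2391 and DCAR_018438.v1.0 match the same RefSeq gene, and the latter also carries a description for ETO1-like protein 1, and how reads were divided between them was not tested. Their sum was 64.7, 74.7 and 63.6 FPKM in the WT replicates and 77.3, 71.8 and 90.9 FPKM in the BC replicates, with BC replicate 2 inside the WT range. Neither change can be read as that of the gene.

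In all, 34 other route genes were tested, of which 12 rose and 4 fell (47.1%, against 46.4% of all tested genes), with a median change of 0.25. The count of 12 became 7 without BC replicate 1, where the count of all tested genes called higher went from 4806 to 3527. Without the 2 rows that share a RefSeq gene, 11 rose and 3 fell. The 8 tyrosine genes showed 0 rises and 2 falls on the same samples.

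The order of levels among the 8 genes was partly shared by the groups. In WT, homogentisate dioxygenase stood 2.4-fold above the phytyltransferase DCAR_017980.v1.0, whose range overlapped that of 4-hydroxyphenylpyruvate dioxygenase. DOPA dioxygenase, arogenate dehydrogenase and solanesyltransferase followed, and solanesyltransferase stood 5.47-fold above tyrosine decarboxylase, whose range overlapped that of the phytyltransferase 1-like gene. In BC, homogentisate dioxygenase stood 2.80-fold above DOPA dioxygenase, and DOPA dioxygenase, 4-hydroxyphenylpyruvate dioxygenase and phytyltransferase overlapped at 48.6, 45.2 and 43.9 FPKM. Arogenate dehydrogenase, solanesyltransferase, tyrosine decarboxylase and the phytyltransferase 1-like gene followed in the same order as in WT, and apart from the overlaps named, neighbours in the order had separate ranges.

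Ratios between steps were compared within each sample as log2 ratios of FPKM + 1, with exact two-sided permutation tests that can give no p below 0.1 with 3 samples against 3. Tyrosine decarboxylase to arogenate dehydrogenase was -2.99, -1.94 and -3.36 in WT and -1.27, -1.75 and -1.27 in BC, a difference of 1.33 with no overlap (exact p = 0.1, 0.2 after adjustment over the 4 ratios). The phytyltransferase DCAR_017980.v1.0 to the phytyltransferase 1-like gene was 4.64, 4.07 and 4.48 in WT and 3.88, 4.04 and 3.16 in BC, a difference of -0.70 (exact p = 0.1, adjusted 0.2), with the nearest samples of the groups 4.07 and 4.04. Arogenate dehydrogenase to 4-hydroxyphenylpyruvate dioxygenase differed by -0.20 (exact permutation p = 0.2, adjusted 0.267), with overlapping groups. Homogentisate dioxygenase to the 3 prenyltransferases together was 1.28, 0.25 and 0.92 in WT and 0.95, 1.49 and 0.74 in BC (0.24, exact p = 0.5, adjusted 0.5), and without WT replicate 2 the difference was -0.039.

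**Figure D3:**
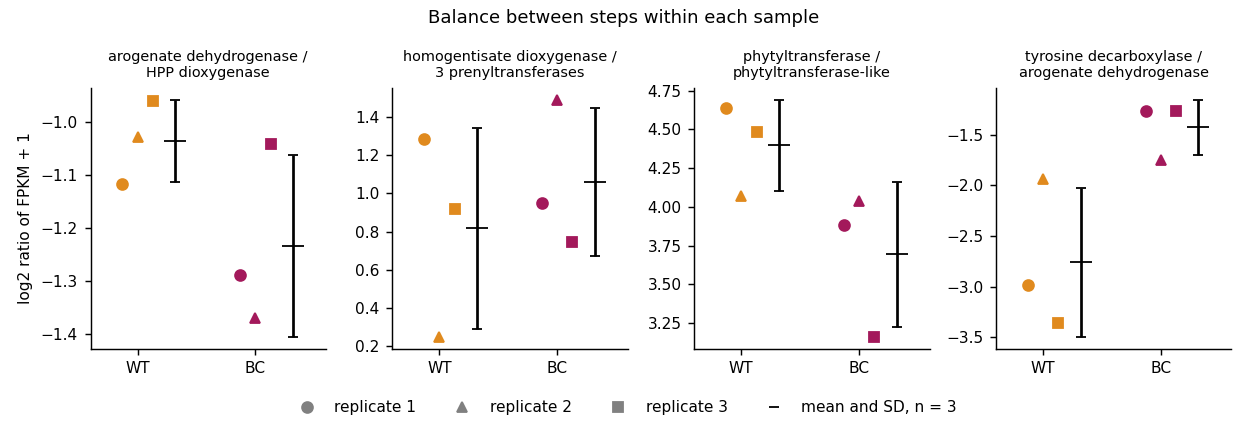
Log2 ratios of FPKM + 1 between steps in each of the 3 WT and 3 BC samples. Each ratio has its own panel and vertical scale. Points are samples and bars are group means with SD (n = 3). The ratio of tyrosine decarboxylase to arogenate dehydrogenase separates the groups (WT -3.36 to -1.94, BC -1.75 to -1.27), and WT replicate 2 is the lowest sample for homogentisate dioxygenase to prenyltransferases.

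Within the groups, the 8 genes fell into a pair of opposite patterns, which were noticed after the values were seen. Arogenate dehydrogenase, DOPA dioxygenase, 4-hydroxyphenylpyruvate dioxygenase and homogentisate dioxygenase were lowest in replicate 2 among WT samples and highest in replicate 2 among BC samples. Tyrosine decarboxylase and the 3 prenyltransferases were highest in WT replicate 2 and lowest in BC replicate 2. Among all tested genes 12.2% had the first order and 23.8% the second, 36.0% in all, and among the 34 other route genes 6 had each (35.3%). In WT replicate 2, homogentisate dioxygenase was -0.36 and tyrosine decarboxylase 0.62 from its group mean on the log2 scale, and in BC replicate 2 they were 0.13 and -0.27. The labels name no batch.

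**Figure D4:**
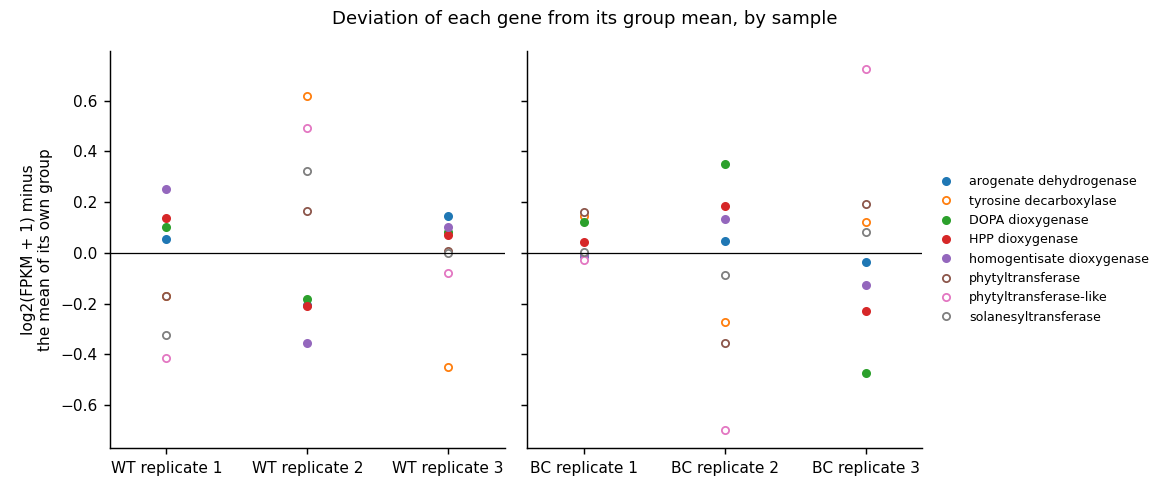
Deviation of each sample from its group mean, log2(FPKM + 1), for the 8 tyrosine genes; filled symbols are the 4 genes lowest in WT replicate 2 and highest in BC replicate 2, open symbols the 4 with the reverse order. Replicate 2 deviates in opposite directions in the groups for all 8 genes, with homogentisate dioxygenase at -0.36 in WT and 0.13 in BC.

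The genes whose levels ran most like each of the 8 over the 6 samples were picked from 10958 described genes with a mean of at least 5 FPKM. The 6 samples fall into 2 groups and their depth is unknown, so the correlations are a description only. Arogenate dehydrogenase ran closest to a two-component response regulator ARR12-like gene (DCAR_019368.v1.0, Pearson r = 0.995), and the geranylgeranyl diphosphate reductase row DCAR_019413.v1.0 was among its 3 closest (r = 0.994). 4-Hydroxyphenylpyruvate dioxygenase ran closest to a coiled-coil domain-containing protein gene (DCAR_030087.v1.0, r = 0.998), followed by a peroxisomal enoyl-CoA hydratase 2-like gene (DCAR_013899.v1.0) and a lon protease 2-like gene (DCAR_009955.v1.0), both at r = 0.996. Homogentisate dioxygenase ran closest to allantoate deiminase (DCAR_004342.v1.0, r = 0.993), an enzyme of purine breakdown. DOPA dioxygenase ran closest to chloroplast ribosomal protein L27 (DCAR_015103.v1.0, r = 0.997), and tyrosine decarboxylase to a probable arabinose 5-phosphate isomerase (DCAR_010071.v1.0, r = 0.998). The phytyltransferase DCAR_017980.v1.0 ran closest to an ERF015-like transcription factor gene (DCAR_020448.v1.0, r = 0.991), the phytyltransferase 1-like gene to a cyclin-D3-1-like gene (DCAR_008822.v1.0, r = 0.994) and solanesyltransferase to a prolyl 4-hydroxylase 12 gene (DCAR_020257.v1.0, r = 0.987).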

How the data were processed

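RNA-seq of fleshy roots gave 1 table for the series, with FPKM per gene and sample as deposited by the authors. RSEM is named in the submitters' processing notes without a version, while for the aligner, the build and the gene models a name is not given in the sources used here. Depth is therefore unknown, and no counting interval is given. RSEM divides reads shared by similar genes, so near-identical genes are uncertain; none of the 8 genes had the same 6 values as another gene. Each of the 6 sample columns matched a sample's own description.

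Values were transformed to log2(FPKM + 1), and genes reaching 1 FPKM in 3 or more samples entered a linear model (R 4.3.3, limma 3.58.1, lmFit and trended eBayes), with Benjamini-Hochberg adjustment over all of them. Fold changes on this scale understate those of low genes. The fit was also run on simulated data with independent noise and few changed genes. Many genes were called here and samples may not be independent, so that run cannot check the calls. Ratios between genes were compared by exact permutation in Python, with 1 FPKM added to each gene, and adjusted by Benjamini-Hochberg in scipy 1.17.1. Intervals are 95% intervals of the fit.

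The 8 genes and the lists were chosen with earlier results of these data known. Lists of other route genes, green tissue and storage root were made from words in the deposited descriptions, which also caught some genes of other function. Named genes were the 8, for each list its most abundant gene and its called genes of largest rise and largest fall, and the 3 genes most correlated with each of the 8, not all of which are printed. DCAR_021051.v1.0, DCAR_019633.v1.0, DCAR_019634.v1.0, DCAR_022319.v1.0, DCAR_029456.v1.0, DCAR_003265.v1.0, DCAR_027826.v1.0, DCAR_003119.v1.0, DCAR_002695.v1.0, DCAR_008053.v1.0, DCAR_027034.v1.0, novel322 and the genes under other observations were chosen after their values were seen. So were DCAR_005501.v1.0, DCAR_019378.v1.0, DCAR_019630.v1.0, DCAR_021258.v1.0 and DCAR_017122.v1.0. All 8 genes and 40 of the 52 other listed rows matched RefSeq genes (DH1 v3.0 assembly), used for names and neighbours only.

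Alternatives were pseudocounts of 0.1 and 5, no filter or 5 FPKM, quantile normalization, rescaling to equal totals or by median-ratio size factors, robust or untrended eBayes, a block for replicate number, and leaving out each sample. Plots used Python 3.11.15 with matplotlib 3.10.9.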

Additional observations from a re-analysis of the deposited data

How the results depend on the processing

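Groups of 3 samples, unknown depth and no record of separate plants limit all results. Of the 8 tyrosine genes, the count called higher was 0 and became 1 with median-ratio size factors and 0 to 1 with single samples left out. The count called lower was 2, became 1 with the replicate block and ranged from 0 to 2 with single samples left out; it was 0 without WT replicate 3 and 3 with equal totals, where 4-hydroxyphenylpyruvate dioxygenase was added. The 12 other route genes called higher ranged from 7 to 13 with single samples left out, and were 11 without the rows that share a RefSeq gene, a setting chosen after seeing the data. The phytyltransferase 1-like gene DCAR_007687.v1.0 reversed with quantile normalization (-0.20), ranged from -0.23 to 0.48 with single samples left out and had no value under the 5 FPKM filter. Solanesyltransferase (DCAR_013678.v1.0) ranged from -0.25 to 0.074, and the log2 ratio of homogentisate dioxygenase to the 3 prenyltransferases from -0.039 to 0.48. The count of all called genes was 9749 and ranged from 6639 (without WT replicate 3) to 10410 (quantile normalization). The median of all genes was -0.11 with equal totals, -0.082 with quantile normalization and -0.016 as reported, and the changes given include these shifts. The cause of these changes was not tested. The labels do not say whether replicate numbers pair the samples. Deviations of same-numbered samples correlated across genes at 0.20, -0.36 and -0.20 for numbers 1 to 3. Those of differently numbered samples correlated at -0.30 to 0.39. These values cannot decide whether samples were paired, because deviations from a mean of 3 samples are tied to one another. With the replicate number as a block, DCAR_017980.v1.0 had an adjusted p of 0.0804 and 7953 genes were called.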

Other observations

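The deposited KEGG annotation places further genes in tyrosine, quinone and betalain metabolism, and those named here were chosen after their values were seen. Of 20 tested genes of the KEGG tyrosine metabolism map that were on none of the lists above, 7 rose and 4 fell (55%). Of 29 such genes of the map of ubiquinone and other terpenoid-quinones, 7 rose and 6 fell (44.8%), against 46.4% of all tested genes called. The map of betalain synthesis held 1 such tested gene, which was called lower (-1.69). Class-3 alcohol dehydrogenase (DCAR_000552.v1.0), known for the detoxification of formaldehyde, fell from 527 ± 66.9 to 265 ± 21.1 FPKM (SD, n = 3; -0.98, limma adjusted p = 0.00118). A homologue of macrophage migration inhibitory factor (DCAR_014669.v1.0) rose from 16.4 ± 2.09 to 59.6 ± 9.52 FPKM (1.79, adjusted p = 0.000171). A copper methylamine oxidase-like gene (DCAR_021581.v1.0), of the family that oxidises primary amines, rose from 24.0 ± 2.78 to 62.4 ± 6.37 FPKM (1.35, adjusted p = 0.000281).

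Genes of phylloquinone synthesis, the naphthoquinone electron carrier of photosystem I, differed in direction. The 2-carboxy-1,4-naphthoquinone phytyltransferase (DCAR_003711.v1.0) rose from 19.4 ± 2.43 to 32.1 ± 5.95 FPKM (0.69, adjusted p = 0.0117, and 0.050 without WT replicate 3). The 2-phytyl-1,4-beta-naphthoquinone methyltransferase (DCAR_021512.v1.0) fell from 39.3 ± 4.48 to 29.3 ± 2.0 FPKM (-0.41, adjusted p = 0.0232), a call lost without WT replicate 3 (0.0703) or BC replicate 1 (0.0840).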
